A study of Mus musculus with 12 samples.

Results

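Interferon-stimulated genes are the antiviral programme that cells switch on after type I interferon binds its receptor. Receptor-bound kinases activate transcription factors that move to the nucleus and bind an interferon-stimulated response element in the promoters of target genes. In the liver the programme is known from viral infection, and low levels of its transcripts are found in uninfected tissue, in hepatocytes as well as in macrophages, endothelial cells and other immune cells. The genes described here are Irf7, Isg15, Usp18, Ifit1, Ifit2, Ifit3, Oasl2, Rsad2 and Bst2. They were taken by gene symbol from the deposited expression table, with no threshold on level or change, and all 9 were among the 12284 named genes of that table.

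The RNA came from livers of mice that all carried floxed alleles of Acly and Acss2 (Acly f/f; Acss2 f/f). In the double knockout group (DKO, 6 libraries) an adeno-associated virus, AAV8-TBG-Cre, delivered Cre recombinase under a hepatocyte promoter, so that other liver cells kept both genes. In the control group (WT, 6 libraries) the same type of vector carried GFP in place of Cre (AAV8-TBG-GFP). Mice of both groups were injected at 6 to 8 weeks of age, were put on a Western diet (Teklad TD.88137) 1 week later and ate it for 6 weeks before the liver was collected. Every mouse had thus received AAV8 and the diet, and what Cre or GFP may do by itself cannot be told apart from gene loss. Each library is a polyadenylated RNA library of whole liver, given as log2 CPM, the reads of a gene scaled to the size of its library, on a log2 scale; levels of different genes are not compared, because CPM is not per length. Whether every library stands for its own mouse is not in the labels, and p-values therefore measure the spread between these libraries, which may be technical.

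On the linear scale a library held 905964 to 1087992 CPM in all; how many reads that represents is unknown. Acly, the ATP citrate lyase that makes cytosolic acetyl-CoA, fell in DKO livers to 17.6% of the WT level (limma adjusted p = 0.0165), and Acss2, which makes acetyl-CoA from acetate, fell by 2.18 on the log2 scale (adjusted p = 0.00571). The library labelled DKO 1 stood apart: its Acly level of 6.60 log2 CPM exceeded that of WT 5 (6.56, the lowest of the WT libraries) and was far above the DKO median of 4.65, and its Acss2 level of 5.74 log2 CPM was the highest of the DKO libraries (median 4.01) but below the lowest WT library (6.12). In the WT group, WT 1 was likewise the highest library for both genes. It had 9.35 log2 CPM for Acly (WT median 7.51) and 7.45 log2 CPM for Acss2 (WT median 6.35). Without the library labelled DKO 1 the log2 fold change was -2.81 for Acly and -2.47 for Acss2. Without WT 1 it was -2.158 for Acly and -1.997 for Acss2. Why DKO 1 and WT 1 were high for these genes was not tested. Of 13 measured hepatocyte markers 10 were lower in DKO livers and 1 fell, Asgr1 (log2 fold change -0.35, limma adjusted p = 0.0452).

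The response element through which these genes are known to be induced was looked for in the RefSeq promoter windows of the members, 250 bases before to 50 bases after the annotated start (build GRCm38.p6). Of the 9 members, 8 had a window and Usp18 had none. The core of the element, GAAA, any 2 bases and GAAA again, was searched on both strands with overlapping matches allowed. It occurred in 5 of these 8 genes, and in 3.99% of all genes with a window (3.79% of those tested here). The longer form, the same core followed by CT, occurred in 3 of the 8, Ifit1, Ifit3 and Bst2, and in 0.303% of all genes with a window (0.423% of those tested here). The stretches of 60 bases below hold every core match of the 5 genes and are printed 5′ to 3′ in the direction of the gene. Capitals mark the core, or its reverse complement where the match lies on the opposite strand; these stretches are shown because the response element is how interferon is known to act on the genes.
Isg15: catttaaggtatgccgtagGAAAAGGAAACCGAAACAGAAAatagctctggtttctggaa
Bst2: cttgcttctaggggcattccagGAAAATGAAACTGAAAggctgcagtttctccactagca
Rsad2: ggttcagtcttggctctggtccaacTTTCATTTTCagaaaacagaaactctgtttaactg
Ifit3: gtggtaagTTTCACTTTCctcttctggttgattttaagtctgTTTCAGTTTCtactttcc
Ifit1: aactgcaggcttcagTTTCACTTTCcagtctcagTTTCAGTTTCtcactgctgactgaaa
The Isg15 stretch is chr4:156200856-156200915 (minus strand) and holds 3 overlapping matches, the first beginning 78 bases before the start of the gene. For Bst2 the stretch is chr8:71537565-71537624 (minus strand), with 2 overlapping matches that begin 130 and 124 bases before the start. The Rsad2 stretch, chr12:26456538-26456597 (minus strand), holds 1 match on the opposite strand. Ifit3 (chr19:34583365-34583424, plus strand) and Ifit1 (chr19:34640770-34640829, plus strand) each hold 2 matches on the opposite strand. The windows of Irf7, Oasl2 and Ifit2 held no match, which says only that these letters are not in those windows.

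None of the 9 interferon-stimulated genes passed the test between DKO and WT livers (limma adjusted p below 0.05, adjusted over 12284 genes). Of all genes 1.74% passed it, 0.619% higher and 1.12% lower in DKO. At that share, 9 genes will often hold none. The log2 fold changes (DKO minus WT) lay between -0.46 for Bst2 and 0.38 for Oasl2. The members were divided in direction: 6 were lower in DKO livers (Bst2, Isg15, Ifit1, Ifit3, Rsad2 and Irf7) and 3 higher (Oasl2, Ifit2 and Usp18). Their median was -0.24, beside 0.0041 over all genes tested. At an unadjusted p below 0.05 there was 1 member, Bst2, which was lower in DKO; 16.4% of all genes passed that threshold, 8.47% in the lower direction. DKO and WT values overlapped for all 9 members, as they did for all but 2.17% of all genes. Without the library labelled DKO 1, 0 members were called by limma and their median log2 fold change was -0.29, with the same 6 members lower and 3 higher.

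**Figure D1:**
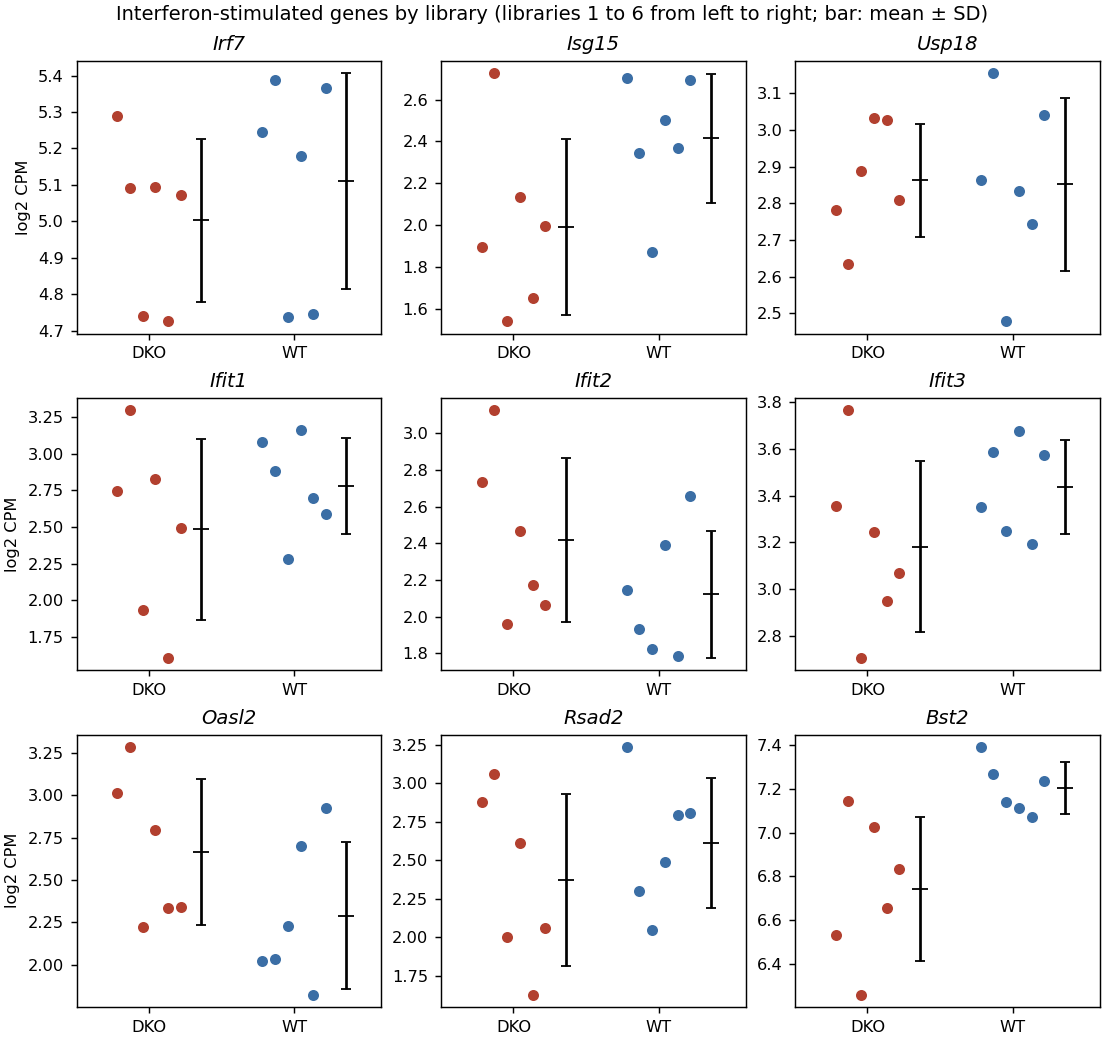
Level of each of the 9 genes in log2 CPM (vertical axes, scaled to each gene) in 6 DKO (red, left) and 6 WT (blue, right) libraries; points run from library 1 to 6 within a group and the bar gives mean ± SD. The groups overlap in every panel, and Bst2 comes nearest to separation, with 5 of 6 DKO libraries below the lowest WT library.

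Irf7 encodes the transcription factor that amplifies type I interferon production once the response has begun. It ranged from 4.73 to 5.29 log2 CPM in DKO livers (median 5.08) and from 4.74 to 5.39 in WT livers (median 5.21). In both groups the values formed a high set and a low pair, DKO 3 and DKO 5 in one and WT 3 and WT 5 in the other, and the groups covered nearly the same range. Irf7 had a log2 fold change of -0.11 (exact permutation p = 0.483; SE 0.14 and adjusted p = 0.762 by limma), and the 95% interval put the DKO level between 75.2% and 115% of WT.

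Isg15 encodes a ubiquitin-like protein that is attached to other proteins during the response. Its values ran from 1.54 to 2.72 log2 CPM in DKO livers, with a median of 1.95, and from 1.87 to 2.71 in WT livers, with a median of 2.44. Library DKO 2 lay above every WT library, and the other 5 DKO libraries lay below the WT mean. The DKO level was 74.5% of WT (log2 fold change -0.42, SE 0.21), and this difference did not pass (limma adjusted p = 0.337, exact permutation p = 0.0866). Usp18 encodes the protease that removes ISG15 from its targets and damps signalling at the interferon receptor. It spanned 2.64 to 3.03 log2 CPM in DKO livers (median 2.85) and 2.48 to 3.15 in WT livers (median 2.85). All DKO values lay inside the WT range. The log2 fold change of Usp18 was 0.01, and its 95% interval, from -0.28 to 0.30, reached from 82.3% to 123% of WT (limma adjusted p = 0.982). Its sign turned with library medians subtracted (-0.01) and with quantile normalization (-0.06).

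Ifit1, Ifit2 and Ifit3 lie near each other on chromosome 19 and encode proteins with tetratricopeptide repeats; IFIT1 binds viral RNA whose cap lacks the host's methylation. Ifit1 ran from 1.61 to 3.30 log2 CPM in DKO livers, with a median of 2.62, and from 2.28 to 3.16 in WT livers, with a median of 2.79. The DKO libraries thus reached further both ways than the WT libraries, with DKO 3 and DKO 5 below and DKO 2 above all of them. Ifit3 spanned 2.71 to 3.77 log2 CPM in DKO livers (median 3.16) and 3.19 to 3.68 in WT livers (median 3.46). Of the DKO libraries, 3 lay below the lowest WT library and 1, again DKO 2, above the highest. Ifit2 went the other way: 1.96 to 3.13 log2 CPM in DKO livers (median 2.32) and 1.78 to 2.66 in WT livers (median 2.04). For Ifit2, DKO 1 and DKO 2 exceeded every WT library, and no DKO library lay below the lowest WT library. The log2 fold changes were -0.30 for Ifit1 (SE 0.26, limma adjusted p = 0.628), -0.26 for Ifit3 (SE 0.17, adjusted p = 0.481) and 0.30 for Ifit2 (SE 0.22, adjusted p = 0.555). With 1 library left out, the value of Ifit1 was -0.46 (without DKO 2) to -0.12 (without DKO 5). The difference between Ifit2 and its neighbours was not tested. The mouse genome holds a near-identical copy of Ifit3, Ifit3b, which is not analysed here, so reads of the pair may have been divided between them.

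Oasl2 encodes a relative of the oligoadenylate synthetases, the enzymes whose product activates the antiviral ribonuclease RNase L. Its level was 2.22 to 3.29 log2 CPM in DKO livers, with a median of 2.57, and 1.82 to 2.93 in WT livers, with a median of 2.13. In DKO livers 5 of 6 libraries stood above the WT mean, and DKO 1 and DKO 2 above all WT libraries. Even so the log2 fold change of 0.38 (SE 0.24; 95% interval -0.13 to 0.88) did not pass (limma adjusted p = 0.46, exact permutation p = 0.167). Rsad2 encodes viperin, a radical SAM enzyme; the human protein makes a nucleotide that ends viral RNA chains. It ran from 1.63 to 3.06 log2 CPM in DKO livers, with a median of 2.34, and from 2.05 to 3.23 in WT livers, with a median of 2.64. DKO 3 and DKO 5 lay below all WT libraries and none lay above them. The log2 fold change of Rsad2 was -0.24 (SE 0.26, limma adjusted p = 0.709), and the 95% interval allowed a DKO level from 57.3% to 125% of WT. With 1 library left out the log2 fold change was -0.38 (without DKO 2) to -0.09 (without DKO 5).

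Bst2 encodes tetherin, a membrane protein that holds budding virus particles at the cell surface, and in mice it is also used as a marker of plasmacytoid dendritic cells. It had 6.53, 7.15, 6.26, 7.03, 6.66 and 6.83 log2 CPM in DKO 1 to DKO 6, against 7.39, 7.27, 7.14, 7.11, 7.07 and 7.24 log2 CPM in WT 1 to WT 6. All 6 DKO libraries were below the WT mean and 5 were below the lowest WT library, the exception being DKO 2. The mean was 6.74 ± 0.33 log2 CPM in DKO livers and 7.20 ± 0.12 in WT livers (SD, n = 6 each; exact permutation p = 0.00866). That is 72.7% of the WT level (95% interval 59.9% to 88.3%; log2 fold change -0.46, SE 0.13). Over all genes the limma adjusted p was 0.0902, short of the threshold. Bst2 passed it when DKO 2 was left out (log2 fold change -0.54, adjusted p = 0.0448), and over the other alternatives, that without the library labelled DKO 1 included (0.165), its adjusted p lay between 0.0565 and 0.195.

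Levels in whole liver depend on both the number of cells of a type and the RNA in each, and fewer cells of a type and less RNA per cell cannot be told apart. Markers of other cell types were summed in the same libraries. All 18 measured macrophage and monocyte markers were higher in DKO livers and 3 rose (Gpnmb, Ccr2 and Lyz2). At an unadjusted limma p below 0.05 there were 14, 77.8% of the list beside 16.4% of all genes. The lowest WT level of Gpnmb, -3.26 log2 CPM, was also the lowest value of any gene, so the size of its rise is uncertain. In alternatives chosen after seeing the data, the count of called markers was 1 without DKO 4, WT 2 or WT 3, 5 with array weights and 7 without WT 1. It was also 1 with either filter on low values, but both filters removed Gpnmb and Ccr2, which were then not tested. Their mean levels were 2.23 (DKO) and -2.40 (WT) log2 CPM for Gpnmb, and 1.55 and 0.15 for Ccr2. The summed level below covers all 18 markers. The macrophage and monocyte markers summed to 443 to 698 CPM in DKO libraries and 327 to 574 CPM in WT libraries. Of the 5 measured markers of plasmacytoid dendritic cells 4 were higher in DKO livers and 0 were called by limma (2 at an unadjusted p below 0.05). The summed level of these markers was 26.3 to 44.6 CPM in DKO and 21.3 to 37.9 CPM in WT libraries. Siglech, named after its values were seen, was the 1 that was lower (log2 fold change -0.75, SE 0.31, limma adjusted p = 0.242). Its mean was low in both groups, 0.58 log2 CPM in DKO and 1.33 in WT livers. All 12 endothelial markers were higher in DKO livers, with 0 called by limma (6 at an unadjusted p below 0.05) and sums of 372 to 471 CPM in DKO and 359 to 399 CPM in WT libraries. Among 6 lymphocyte and plasma cell markers 4 were higher and 2 lower in DKO livers, and 1 rose, Ighm. The sums of this list were 17.6 to 158 CPM in DKO and 17.1 to 25.3 CPM in WT libraries. Ighm alone reached 7.01 log2 CPM in DKO 1, beside a DKO median of 4.51. The 13 hepatocyte markers summed to 71047 to 105142 CPM in DKO and 84213 to 99008 CPM in WT libraries. The 2 measured neutrophil markers summed to 3.82 to 7.68 CPM in DKO and 2.06 to 5.36 CPM in WT libraries. The part of any of these cell types in the levels of the 9 genes was not tested.

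**Figure D2:**
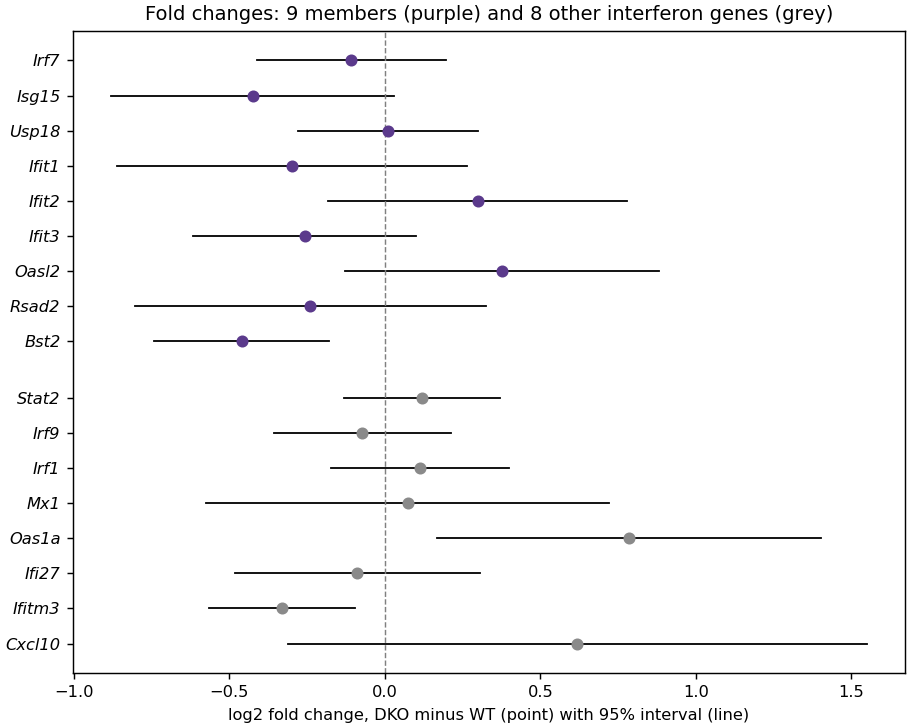
Log2 fold change, DKO minus WT (horizontal axis; points), with its 95% interval (lines), for the 9 members (purple, top) and 8 other interferon genes (grey, bottom). The interval of Bst2, -0.74 to -0.18, is the only 1 among the members that does not reach 0; among the others those of Oas1a and Ifitm3 do not.

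Among DKO livers, DKO 2 was the highest library for 7 of the 9 genes. DKO 3 was the lowest for 5 and DKO 5 for 3, and each lay below the DKO mean for 8. Among WT livers, WT 3 was below the WT mean for all 9 genes and the lowest for 5, WT 5 was the lowest for the other 4, and WT 6 was above the WT mean for 8. No WT library was the highest for most genes: WT 1 was highest for 3, and WT 2, WT 4 and WT 6 for 2 each. The median deviation of the 9 genes from their group mean was 0.62 on the log2 scale in DKO 2 and -0.45 in DKO 3, and it was 0.20 in WT 6 and -0.37 in WT 3. The SD was larger among DKO than among WT libraries for 6 of the 9 members, and for 56.7% of all genes.

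Usp18 was lowest in DKO 2, the library in which 7 other members were highest. With group means removed, the 28 pairs of members without Usp18 had a Pearson r between 0.38 and 0.94 over the 12 libraries (median 0.65; Spearman rho 0.29 to 0.90, median 0.59). The 8 pairs with Usp18 had r between -0.13 and 0.44 (median -0.03; rho -0.16 to 0.46, median 0.04). Of all 36 pairs, 11 passed a 2-sided permutation test of r within groups after Benjamini-Hochberg adjustment over the pairs. For rho 5 passed, and all pairs that passed either test were among those without Usp18. How many pairs of other genes would pass was not computed, so these counts do not set the members apart from other genes. The closest pair was Ifit2 and Oasl2, with r = 0.94 (permutation p = 0.00014, adjusted p = 0.00504) and rho = 0.90 (permutation p = 0.00044, adjusted p = 0.0158). Without the 2 libraries farthest from the median of Ifit2 that r was 0.89. Over the 28 pairs r was 0.05 to 0.89 with 2 libraries left out in the same way, chosen by 1 gene of each pair (median 0.58). The lowest was Ifit3 with Bst2, with the libraries chosen by Ifit3. Over all libraries that pair had r = 0.65 and did not pass (permutation adjusted p = 0.132). The 8 pairs with Usp18 then had r between -0.57 and 0.05. A difference between Usp18 and the other members in these correlations was not tested.

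**Figure D3:**
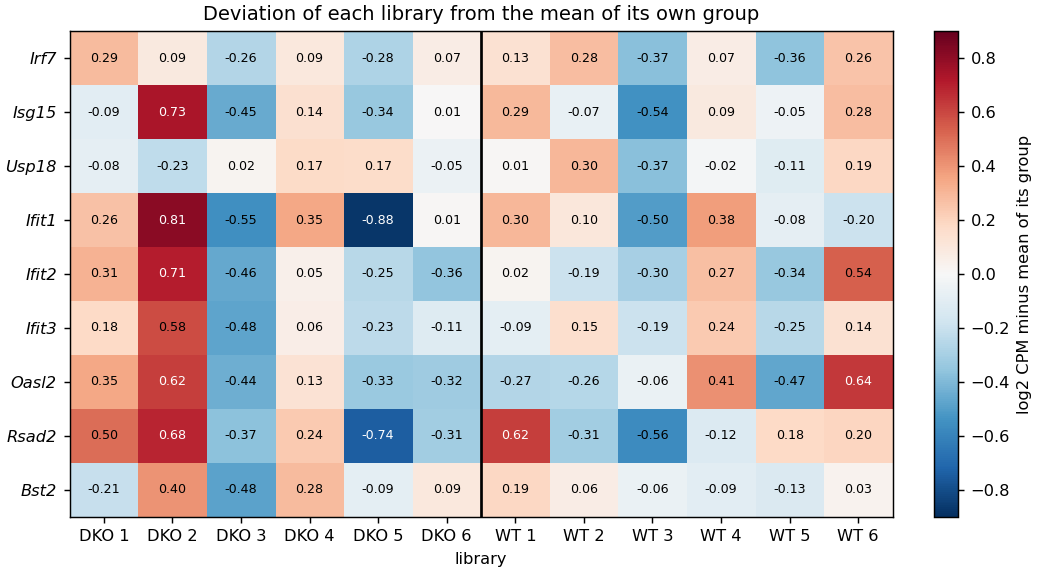
Log2 CPM of each library minus the mean of its own group (colour and printed value), for the 9 members (rows) in the 6 DKO libraries (left of the line) and 6 WT libraries (right). DKO 2 is above its group for every gene but Usp18, and DKO 3 is below for every gene but Usp18; WT 3 is below its group for all 9.

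Beside this pattern, the summed macrophage and monocyte markers were 629, 698, 448, 638, 698 and 443 CPM in DKO 1 to DKO 6, and 574, 364, 330, 376, 327 and 445 CPM in WT 1 to WT 6. They were thus equally high in DKO 2, where most members were highest, and in DKO 5, where most were below the group mean. The sums were low in DKO 3 and WT 3, where the members were low too. Of the DKO libraries the sum was lowest in DKO 6, where 4 members were above and 5 below the group mean. Of the WT libraries it was lowest in WT 5, where 8 members were below the group mean. The hepatocyte markers summed to 84498, 105142, 90326, 71047, 75785 and 72586 CPM in DKO 1 to DKO 6. In WT 1 to WT 6 they summed to 99008, 86462, 93165, 84213, 98652 and 86140 CPM. The hepatocyte sum was the highest of the 12 libraries in DKO 2 and the lowest in DKO 4, where all 9 members were above the group mean. The part of either in the pattern was not tested.

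The genes whose pattern over the libraries was most like that of the 9 members were Glipr2 (Pearson r = 0.94, Spearman rho = 0.92), Ifi44 (r = 0.92, rho = 0.92), BC023105 (r = 0.91, rho = 0.85), Gvin1 (r = 0.91, rho = 0.83) and Aox3 (r = 0.90, rho = 0.89). Likeness was measured against the mean of the 9 standardized members with group means removed, over 12 libraries and 12255 other genes; these are the top of a ranking and carry no test. Without the 2 libraries farthest from the median r was 0.83 to 0.96 for the 5 genes. Ifi44 and Gvin1 are themselves interferon-inducible. Neither was called between the groups (log2 fold change 0.27, adjusted p = 0.664, and 0.28, adjusted p = 0.767, by limma). Aox3, a hepatic aldehyde oxidase, fell in DKO livers (log2 fold change -0.58, SE 0.13, limma adjusted p = 0.0357).

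The rest of the interferon pathway, from ligand receptors to effectors, held 114 measured genes in 5 lists, and 0 of them were called by limma over all genes. At an unadjusted p below 0.05 there were 19 (14 higher and 5 lower in DKO), 16.7% of the lists beside 16.4% of all genes. Higher values in DKO livers were found for 75 of the 114, 65.8% beside 50.8% of all genes, and the median log2 fold change was 0.12 beside 0.0041. The 9 members, with a median of -0.24, lay on the other side of 0 from each of the 5 list medians (0.04 to 0.13); this difference was not tested.

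Among receptors, 4 of 5 measured genes were higher in DKO. Ifngr1, a chain of the interferon gamma receptor, was closest to the threshold (4.23 ± 0.15 log2 CPM in DKO and 3.97 ± 0.13 in WT livers, SD, n = 6 each; limma adjusted p = 0.20). Of the 13 measured signalling genes, 7 were higher. Stat2, which carries the signal to the nucleus, had a limma adjusted p of 0.671 (log2 fold change 0.12, SE 0.12), and its partner Irf9 was at -0.07 (SE 0.13, adjusted p = 0.846). Irf1, a transcription factor of the interferon gamma response, had 0.11 (SE 0.13, adjusted p = 0.731). Irf8, a transcription factor of macrophages and dendritic cells, was highest of this list (0.73, SE 0.23, limma adjusted p = 0.120). In nucleic acid sensing, 13 of 17 genes were higher, and Tlr7, the endosomal receptor for single-stranded RNA, came closest (0.77, SE 0.34, limma adjusted p = 0.278). Ifih1 and Ddx58, the cytosolic sensors of double-stranded RNA and named after their values were seen, had 0.27 and 0.19 (adjusted p = 0.315 and 0.440).

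The 51 other type I response genes had 33 higher and 18 lower in DKO livers, with log2 fold changes from -0.75 to 0.79. Oas1a, an oligoadenylate synthetase and so a relative of Oasl2, ran from 1.61 to 3.11 log2 CPM in DKO livers (median 2.26) and from 1.04 to 1.96 in WT livers (median 1.62). Its groups overlapped, with 4 DKO libraries above the highest WT library (log2 fold change 0.79, SE 0.29, limma adjusted p = 0.178). Other genes of this family, named after their values were seen, divided like the Ifit genes: the log2 fold change was 0.56 for Oas1g, 0.53 for Oas2, 0.37 for Oas1c and 0.28 for Oas3, but -0.02 for Oas1b and -0.34 for Oasl1. The adjusted p of these 6 lay between 0.299 and 0.976, and Oas1a and Oas1g are close paralogs that may share reads. Mx1, a dynamin-like antiviral GTPase, was at 0.07 on the same log2 fold change scale (SE 0.30, adjusted p = 0.937), with the opposite sign under quantile normalization, and Ifi27 was at -0.09 (SE 0.18, adjusted p = 0.865), a sign that turned without DKO 3 (0.03).

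The Ifitm proteins block the entry of viruses into cells, and their genes differed in sign. Ifitm2 was at 5.40 to 6.57 log2 CPM in DKO livers (median 6.23) and 6.50 to 7.26 in WT livers (median 6.69), with the smallest p of its list (log2 fold change -0.63, SE 0.18, limma adjusted p = 0.0863). Ifitm3 was also lower, at 7.82 ± 0.18 log2 CPM in DKO and 8.15 ± 0.21 in WT livers (SD, n = 6 each; adjusted p = 0.138). Of the alternatives, only that with the replicate number as a block called Ifitm3 (limma adjusted p = 0.033). Ifitm1, named after its values were seen, was higher in DKO livers (0.65, SE 0.21, adjusted p = 0.135). In the interferon gamma list, 18 of 28 genes were higher. The chemokine gene Cxcl11 was lower and closest to the threshold (1.34 ± 0.30 log2 CPM in DKO and 2.07 ± 0.36 in WT livers, SD, n = 6 each; adjusted p = 0.0901; 0.0445 without WT 1), while Cxcl10, its neighbour in function, stood at 0.62 on the log2 fold change scale, with SE 0.43 and a limma adjusted p of 0.518.

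**Figure D4:**
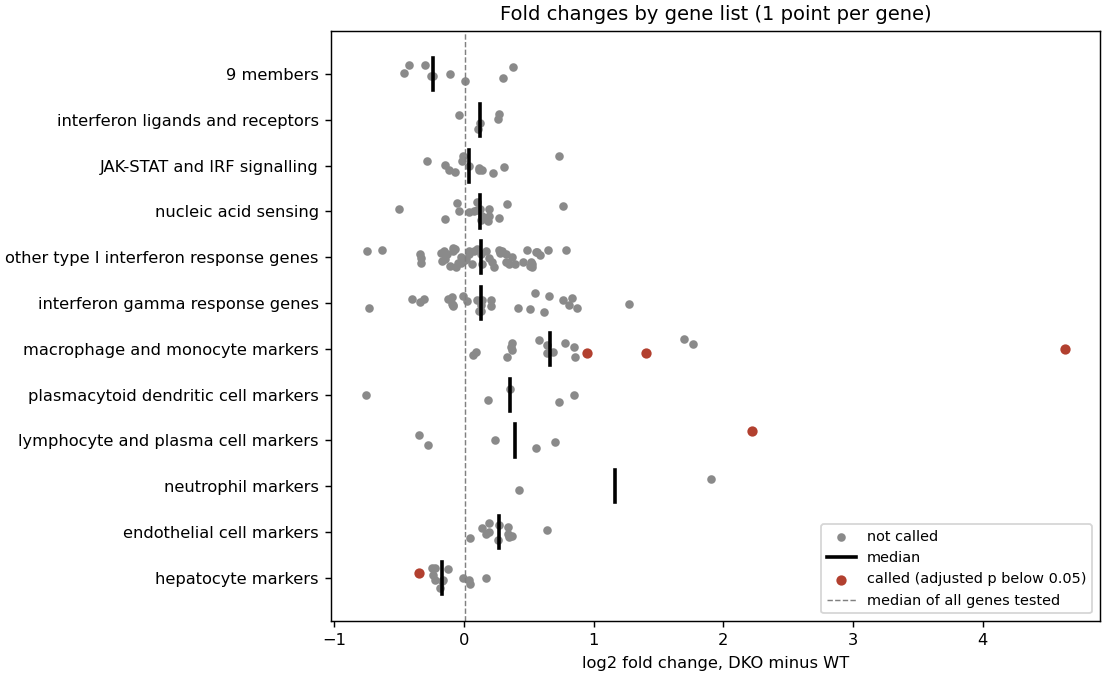
Log2 fold change, DKO minus WT (horizontal axis), of each gene of the 9 members, the 5 interferon pathway lists and the 6 cell type marker lists (rows); red points were called (limma adjusted p below 0.05), the thick bar is the list's median and the dashed line the median of all genes tested. No interferon gene is red; called points appear among macrophage, lymphocyte and hepatocyte markers.

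Set beside the promoter stretches, the 5 members with a core match (Bst2, Isg15, Ifit1, Ifit3 and Rsad2) had log2 fold changes of -0.46 to -0.24. The 3 without a match had -0.11 (Irf7), 0.30 (Ifit2) and 0.38 (Oasl2). None of these passed the test, and the difference between them was not tested. Over all tested genes with a window, the log2 fold change had a median of 0.026 where the core was found and 0.0034 where it was not. In the other interferon lists that hold both kinds the median was 0.28 with and 0.11 without a match for type I response genes, 0.14 and 0.13 for interferon gamma response genes, 0.19 and 0.10 for nucleic acid sensing, and -0.08 and 0.01 for signalling genes.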

How the data were processed

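Polyadenylated RNA of mouse liver was sequenced in 12 libraries, grouped by the genotype label. The deposited table holds log2 CPM, which its title says the authors filtered and normalized; no source used here gives the filter, the added count or the factors. kallisto 0.46.2, edgeR, limma and GRCm39 stand, with no role, in the submitters' processing notes. Of 12285 rows, 1 without a name (0.0075% to 0.0148% of a library) was left out. The lowest value was -3.26 log2 CPM. Depth is unknown, so precision was judged from the spread between libraries.

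All 12284 genes were fitted with limma 3.58.1 in R 4.3.3 (mean trend, 2-sided, no covariate) and adjusted by Benjamini-Hochberg; a gene is called, and is said to have risen or fallen, at an adjusted p under 0.05. Alternatives changed the filter, added constant, normalization, variance model, weights or replicate block, or left out 1 library. Exact permutation tests covered all 924 divisions into 6 and 6. Correlations used 100000 permutations within groups. Promoter sequences came from RefSeq (GRCm38.p6), matched by symbol, and figures from matplotlib 3.10.9.

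The members and lists were chosen with earlier results of these data known. Named beyond the members were the called genes of each list (at most 4) or that of smallest p, a fixed set (Stat2, Irf9, Irf1, Mx1, Oas1a, Ifi27, Ifitm3, Cxcl10, Acly, Acss2) and the 5 genes most like the members; others are marked. One gene of the fixed set is not reported here. In the 11 lists, genes absent from the table were not analysed here. Neutrophil and endothelial lists had no called gene; their closest were Mmp9 (adjusted p = 0.103) and Cdh5 (0.120).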

Additional observations from a re-analysis of the deposited data

Results flagged for a closer look

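In each group of 6 libraries, the gap between the highest or lowest library and its nearest neighbour was set against the whole range of the group, over 46 genes and 92 groups; chance alone marks about 1 in 20 groups. None of the 9 interferon-stimulated genes had a library that stood apart in this way, and 5 values of other genes did. In WT 1, Irf8 was at 3.43 log2 CPM and the next WT library at 2.80 (gap 0.660 of the range). Stat2 was at 5.83 log2 CPM in WT 1 and at 5.58 in the next (0.666). Acss2 was at 7.45 log2 CPM in WT 1 and at 6.50 in the next (0.711). Siglech was at 0.57 log2 CPM in WT 1, below the next lowest at 1.37 (0.806). Gbp8, an interferon-inducible GTPase named after its values were seen, was at -1.79 log2 CPM in WT 4 and at 0.29 in the next lowest (0.791). Its log2 fold change, DKO minus WT, was 1.27 (SE 0.42, limma adjusted p = 0.141).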

How the results depend on the processing

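Each result was recomputed under 22 alternatives, of which 12 left out 1 library. The count of members called was 0 under 21 of them; leaving out 1 library gave 0 to 1, and the 1 was Bst2 without DKO 2. The median log2 fold change of the members stayed below 0 throughout (-0.37 to -0.09). For 8 members the direction held under every alternative that could be computed; the filter at a mean of 3 log2 CPM left 3 members (Irf7, Ifit3 and Bst2) and gave no value for the other 6. With 1 library left out the log2 fold change was -0.18 to -0.05 for Irf7, -0.57 to -0.33 for Isg15, -0.46 to -0.12 for Ifit1, 0.16 to 0.41 for Ifit2, -0.37 to -0.16 for Ifit3, 0.25 to 0.50 for Oasl2, -0.38 to -0.09 for Rsad2 and -0.54 to -0.36 for Bst2. Usp18 turned negative with library medians subtracted (-0.011) and quantile normalization (-0.061), and leaving out 1 library gave -0.065 to 0.071. Mx1 was -0.040 under quantile normalization and -0.12 to 0.22 with 1 library left out, and Ifi27 was -0.20 to 0.033 with 1 library left out. In each reversed case the cause was not tested. The number of genes called over the table was 138 without the mean trend, 109 under quantile normalization, 356 with array weights and 92 to 373 with 1 library left out, beside 214. The replicate number as a block called 397 genes and 0 members. Same-numbered libraries correlated at -0.08 to 0.29 over all genes, and 3 of 6 DKO libraries correlated best with their own number. The libraries low in the members bore the same numbers in both groups. DKO 3 and DKO 5 lay below their group mean for 8 members each, WT 3 for 9 and WT 5 for 8. Whether the numbers mark pairs or batches is not in the labels and cannot be told from these values. The main fit treated the libraries as unpaired. For the pathway lists, whose alternatives were added after seeing the data, the replicate block called 3 genes (Ifi47, Ifitm3 and Iigp1), and leaving out 1 library 0 to 1 (Cxcl11 without WT 1). Depth is unknown and limits what can be said of small differences.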
